A study of Mus musculus with 14 samples.

Results

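The genes described here are 10 enzymes and proteins of glycine, serine and proline metabolism: Gldc, Amt, Gcsh, Shmt1, Shmt2, Mthfd2, Phgdh, Psat1, Psph and Pycr1. The set was chosen by the log2 difference of Gldc between pregnant and virgin cells of the sorted mammary population P5, where it was strongly raised, and each gene was taken by the name printed for its probes in the scanner files. Of the 10 genes, 9 had a probe under their name (13 probes in all), and Amt is not analysed here. All 9 passed the filter on dim probes and were tested among 23647 genes. Gldc passed through pregnant P4, P5 and P6 and virgin P6, while the other 8 were well above background on all 14 arrays.

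RNA of sorted mouse mammary cells was hybridised in Cy5 to 14 Agilent arrays, with a reference RNA mixed from 11 mouse cell lines in Cy3. Every value below is therefore a log2 ratio of the sorted cells over that reference, or a difference between such ratios. From wild-type FVB/N-J mice, the groups were pregnant P4, virgin P4, pregnant P5, virgin P5, pregnant P6 and virgin P6, with 2 arrays each. From virgin L2G85 mice, an FVB/N line with a luciferase transgene whose cells were sorted on GFP, there was 1 array of lineage-negative GFPhi cells and 1 of lineage-negative GFPlo cells. P4 is labelled as enriched for mammary stem cells (MaSC), P5 for luminal progenitors and P6 as differentiated mammary epithelium, while GFPhi is labelled MaSC-enriched and GFPlo MaSC-depleted. The labels give P4 and P5 the same CD24+CD29hi gate and P6 CD24lo, and they name no stage of pregnancy, no age and no treatment. They do not say that replicates came from separate mice, so p-values measure the spread between samples, which may be technical.

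Marker genes were set against these labels. Their summed Cy5 intensities, here and below, are normalised within and between arrays, unlike the scanner intensities given for single genes. The summed Cy5 intensity of 7 basal markers was 219000 and 1090000 in pregnant P4 and ran from 450000 to 574000 in virgin P4, against 20300 to 43600 in pregnant P5 and 5750 to 9030 in virgin P5. Despite its CD29hi label, virgin P5 thus carried little basal signal, and its 7 luminal markers summed to between 395000 and 400000. P6 held strong fibroblast signal: 6 fibroblast markers such as Col1a1 and Lum summed to 234000 and 2440000 in pregnant P6 and to between 1460000 and 1470000 in virgin P6, against 14800 to 37100 in the other 4 wild-type groups. Milk protein genes were high in all pregnant populations, with sums of 140000 to 3600000, against 5220 to 70000 in the virgin ones. The arrays of pregnant replicate 1 were scanned as a batch of their own (scan 3), so pregnancy values are also given from scan 2, which holds 1 pregnant and 1 virgin array of each population. Of these pairs only that of P4 shared a slide, so in P5 and P6 pregnancy cannot be told apart from slide within scan 2.

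The glycine cleavage system of mitochondria breaks glycine down to carbon dioxide and ammonia and hands its remaining carbon to tetrahydrofolate. Serine hydroxymethyltransferases interconvert serine and glycine with the same folate carrier, serine itself is built from a glycolytic intermediate by Phgdh, Psat1 and Psph, and Pycr1 catalyses the last step of proline synthesis. Glycine cleavage is best known from liver and kidney. In the mammary gland, amino acids are drawn on for milk protein during pregnancy and lactation.

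Promoter sequence is shown for the listed genes that passed the test in at least 1 comparison below and have a single promoter entry, since these carry the differences between populations. The sequences are RefSeq's, on build GRCm38.p6, and all 10 listed genes were matched to 11 promoters of 300 bases, from 250 before to 50 after the start site. Shown are the 120 bases before the start site, read 5′ to 3′ on the minus strand. Capitals mark matches on either strand to 4 searched motifs, which are TGATGNAA (the core of the amino acid response element bound by ATF4), TTCNNNGAA (a STAT motif), CACGTG (an E-box) and CCAAT (the box of that name). No marked matches overlap.
Gldc, chr19:30175442-30175561: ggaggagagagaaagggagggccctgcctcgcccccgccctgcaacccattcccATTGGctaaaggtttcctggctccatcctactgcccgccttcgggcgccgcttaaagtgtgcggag
Gcsh, chr8:116993499-116993618: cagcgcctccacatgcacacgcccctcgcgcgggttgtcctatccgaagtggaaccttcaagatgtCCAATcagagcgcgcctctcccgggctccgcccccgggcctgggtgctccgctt
Shmt1, chr11:60811266-60811385: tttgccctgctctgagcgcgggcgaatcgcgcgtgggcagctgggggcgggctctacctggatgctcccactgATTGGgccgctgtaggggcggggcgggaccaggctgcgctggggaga
Pycr1, chr11:120643749-120643868: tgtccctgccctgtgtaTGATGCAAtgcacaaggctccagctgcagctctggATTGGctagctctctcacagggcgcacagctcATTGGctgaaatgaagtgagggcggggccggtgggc
Among all the listed genes, TGATGNAA was found in the promoter of Pycr1 alone, and 3.97% of 32851 mouse promoters hold it. TTCNNNGAA was found in that of Shmt2 alone, against 8.3% of all promoters. The stretch around that match, chr10:127522461-127522529 on the minus strand, reads as follows, with the match in capitals.
Shmt2: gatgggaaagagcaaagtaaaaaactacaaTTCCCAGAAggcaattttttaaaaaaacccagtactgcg
CACGTG matched no listed gene (7.15% of all promoters). CCAAT matched 9 of the 10, against 37.4% of all promoters. A match is a description of letters, and binding was not measured.

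Gldc, the glycine decarboxylase of the cleavage system, spanned the widest range of the 9 genes. Its probe lies at chr19:29798508-29798567 on mm7, the build of the array design. Its log2 ratio was 5.92 and 6.23 on the pregnant P5 arrays and -0.93 and -0.63 on the virgin P5 arrays. In P4 it was 2.09 and 2.55 in pregnant cells, against -1.19 and -0.63 in virgin cells. In P6 it was 0.26 and 0.81 in pregnant cells, against -0.67 and 0.29 in virgin cells. Pregnant and virgin arrays were thus far apart in P5 and P4 and overlapped in P6. GFPhi cells had -0.39 and GFPlo cells -0.21, within the range of the virgin wild-type arrays.

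By mean log2 ratio the order was pregnant P5 (6.08 ± 0.22), pregnant P4 (2.32 ± 0.32), pregnant P6 (0.54 ± 0.39), virgin P6 (-0.19 ± 0.68), GFPlo, GFPhi, virgin P5 (-0.78 ± 0.22) and virgin P4 (-0.91 ± 0.39; SD, n = 2 each). Pregnant P5 and pregnant P4 stood clear of every other group. From pregnant P6 downward each wild-type group overlapped with its neighbour in this order. The Cy5 intensity of the Gldc probe was 9920 and 5720 in pregnant P5, 1190 and 825 in pregnant P4, and 45.8 to 94.3 on the 8 virgin arrays. It was not well above background on either virgin P4 array, on 1 of the 2 virgin P5 arrays or in GFPhi cells, so the virgin level is only bounded there.

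**Figure D1:**
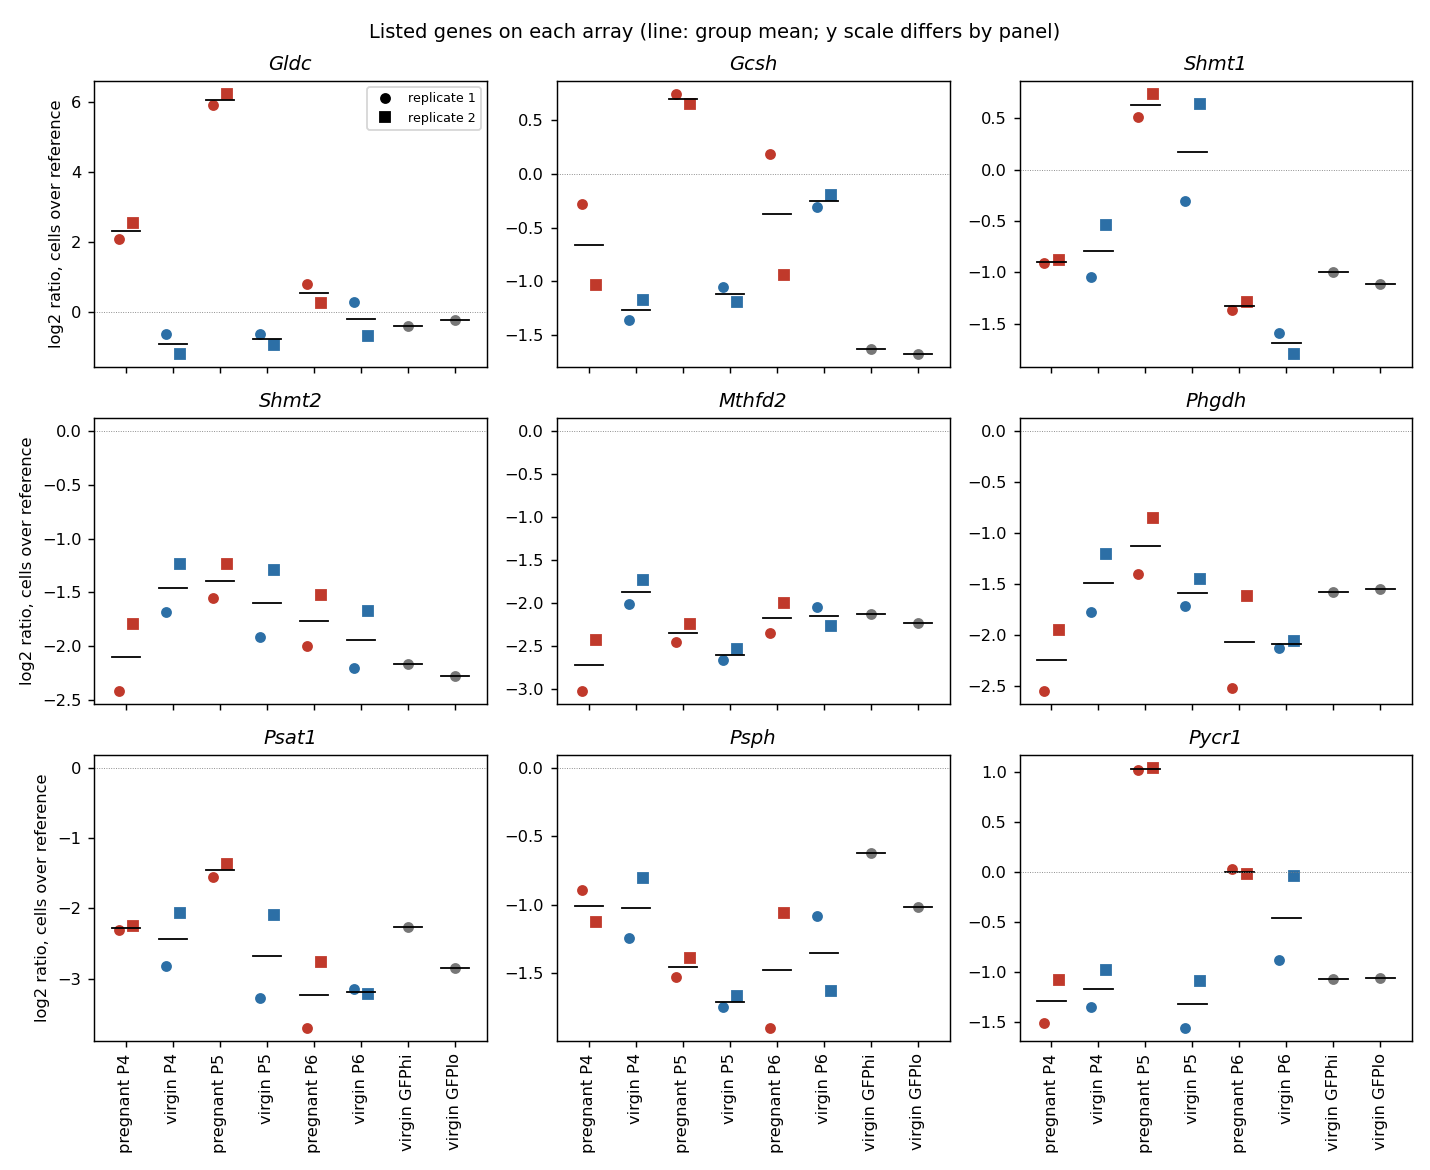
Log2 ratio of sorted cells over reference RNA (y axis, own scale in each panel) for the 9 genes on each of the 14 arrays; red is pregnant, blue virgin wild type, grey virgin L2G85, circles replicate 1, squares replicate 2, and lines group means. Gldc reaches 5.92 and 6.23 in pregnant P5 and 2.09 and 2.55 in pregnant P4, and no other array passes 0.81; Gcsh, Shmt1, Shmt2, Phgdh, Psat1 and Pycr1 also have their highest mean in pregnant P5.

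In P4, Gldc alone of the 9 genes passed the test for pregnancy, and it was higher in pregnant cells. The log2 difference, pregnant minus virgin, was 3.23 ± 0.36 (SE, n = 2 arrays a group; limma adjusted p = 0.00377 over all genes), and both pregnant arrays lay above both virgin ones. Since neither virgin P4 array had the Gldc probe well above background, a bound was also taken on Cy5 intensity normalised within and between arrays. There pregnant P4 averaged 9.38 on the log2 scale, against a floor of 6 in virgin P4, at least 10.4-fold higher on that scale (no dyes were swapped, so this value is open to dye bias). The log2 ratio difference of 3.23 is 9.39-fold, so the Cy5 value is no limit for the change of the ratio. Within scan 2 the difference was 3.74. The call was lost when only the 4 P4 arrays were fitted (adjusted p = 0.0542), and over all alternatives the adjusted p ran from 0.00117 to 0.0542. Calculated from the scanner's own log ratio, the difference was 6.08.

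The count of 1 of 9 genes stands beside 3.73% of all genes called in the same comparison. In bulk samples a change in the share of cells that express a gene and a change in RNA per cell cannot be told apart. Milk gene signal moved with pregnancy in P4: 6 milk genes summed to 165000 and 1280000 in pregnant P4, against 19500 to 33800 in virgin P4, though 0 of 6 passed the test. Of 5 adipocyte markers, 1 rose in pregnant P4, and their sum was 58900 and 267000 there, against 56300 to 90400 in virgin P4. The part of these markers in the Gldc difference was not tested. Of 5 hormone-sensing luminal markers, 1 was lower in pregnant P4. The 3 tested liver and kidney markers summed to 264 to 287 in pregnant P4 and 243 to 267 in virgin P4, and 3 of 3 in pregnant P4 and 2 of 3 in virgin P4 were well above background on both arrays.

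None of the other 8 genes passed the test in P4. Mthfd2, the mitochondrial methylenetetrahydrofolate dehydrogenase, had -3.01 and -2.42 in pregnant P4 and -2.01 and -1.73 in virgin P4. The difference was -0.85 ± 0.22 (SE; 95% interval -1.39 to -0.30; limma adjusted p = 0.088), and the arrays did not overlap. Phgdh, the enzyme that commits a glycolytic intermediate to serine, differed by -0.76 (interval -1.62 to 0.10; limma adjusted p = 0.353), again without overlap. Shmt2, the mitochondrial serine hydroxymethyltransferase, differed by -0.65 (interval -1.44 to 0.15). Shmt2 passed with scan as a block (-0.68, limma adjusted p = 0.0266), and with the replicate number as a fixed block over all arrays both Shmt2 (limma adjusted p = 0.0261) and Mthfd2 (limma adjusted p = 0.0437) passed. The H protein Gcsh differed by 0.61 (interval -0.26 to 1.47). For Shmt1, Psat1, Psph and Pycr1 the differences lay between -0.13 and 0.16, with intervals reaching as far as -0.88 and 1.20. The median over the 9 genes was -0.10, against -0.03 over all genes.

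In P5, the comparison used to choose the genes, values are given as a description without a test. Gldc differed by 6.86 between pregnant and virgin P5, and by 7.17 within scan 2. All 8 other genes had a positive difference, but the share of all genes with one was not counted, and nothing is read from this count. Of all genes, 21.4% were called in this comparison, and nothing is read from that share here. Pycr1 differed by 2.36 (2.14 within scan 2): it had 1.02 and 1.04 in pregnant P5, against -1.56 and -1.10 in virgin P5. Its Cy5 intensity was 621 and 426 on the pregnant P5 arrays, against 120 and 156 on the virgin ones. Gcsh differed by 1.82 (1.84 within scan 2), with 0.65 and 0.74 in pregnant P5, against -1.19 and -1.05 in virgin P5. Psat1, the phosphoserine aminotransferase, differed by 1.22 (0.72 within scan 2), with -1.55 and -1.37 in pregnant P5, against -3.27 and -2.09 in virgin P5. These 4 genes showed no overlap between pregnant and virgin P5 arrays, nor did Phgdh, Mthfd2 and Psph. With 2 arrays a group such separation can arise by chance, and its share over all genes was not counted.

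The other 5 genes differed by 0.20 to 0.46 in P5. Shmt1, the cytosolic serine hydroxymethyltransferase, and Phgdh each differed by 0.46, Mthfd2 and Psph, the phosphatase that releases serine, each by 0.25, and Shmt2 by 0.20. The other probes of Phgdh gave 0.55 and 1.03. Shmt1 overlapped, with 0.51 and 0.73 in pregnant P5 and -0.30 and 0.64 in virgin P5. Marker genes moved in the same comparison: 7 luminal markers summed to between 75700 and 93900 in pregnant P5, against 395000 to 400000 in virgin P5, and 5 skeletal muscle markers to 1230 and 5150, against 18700 to 29200. Within the luminal list only Elf5 was higher in pregnant P5, by 0.89. The 5 hormone-sensing luminal markers summed to 1340 to 1420 in pregnant P5, against 25200 to 33800 in virgin P5. The 6 cell cycle genes summed to 15400 to 15800 in pregnant P5, against 5960 to 13400 in virgin P5. Their part in the P5 differences was not tested.

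The reference signal differed by scan. On the 3 arrays of scan 3, which hold replicate 1 of each pregnant population, 7 of the 9 genes had Cy3 intensity below that on all the other 11 arrays. Gldc and Phgdh overlapped. The share of all genes with such a gap was not counted, so the gap is not read as a trait of the listed genes. Gcsh had 65.2 to 96.2 on scan 3, against 231 to 496 on the other arrays. Psph had 1920 to 2090 against 3720 to 4880, and Shmt1 136 to 151 against 241 to 296. In pregnant P4 and pregnant P6 the replicate of scan 3 had the higher Gcsh ratio (-0.28 against -1.03 in P4, and 0.19 against -0.94 in P6). In pregnant P5 the replicates were close, at 0.74 and 0.65.

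In P6, none of the 9 genes passed the test for pregnancy (limma, 0 of 9, and 0 at an unadjusted p under 0.05), against 0.207% of all genes called. Gldc differed by 0.73 (interval -0.14 to 1.60; limma adjusted p = 0.745), and by 0.94 within scan 2. Pycr1 had -0.02 and 0.03 in pregnant P6, against -0.88 and -0.04 in virgin P6, a difference of 0.47 (interval -0.25 to 1.18). The other 7 differences lay between -0.13 and 0.36. Pregnant P6 replicates differed widely in fibroblast signal (sums of 234000 and 2440000). The 7 luminal markers summed to 4220 to 5300 in pregnant P6, against 19800 to 31000 in virgin P6. Among these only Krt19 was called (-2.87, limma adjusted p = 0.0396). Of the hormone-sensing luminal markers, only Areg was called (-3.18, limma adjusted p = 0.00822). The part of these markers was not tested.

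Whether pregnancy acted differently on Gldc in P4 and in P6 was tested directly, in a comparison added after the values were seen. The pregnancy difference of Gldc was larger in P4 than in P6 by 2.50 ± 0.50 (SE; limma adjusted p = 0.115), and so did not pass. With the replicate number within each condition as a random block, the adjusted p was 0.0102, and 2.84% of all genes passed. It was 0.0187 with scan as a block, 0.0653 with slide as a block and 0.0899 with the fixed replicate block, and it ran from 0.0102 to 0.423 over all alternatives. The random block reflects that same-numbered arrays of a condition shared a scan and deviated together. None of the other 8 genes passed without the block (adjusted p from 0.535 to 0.999), where 0.3% of all genes did.

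**Figure D2:**
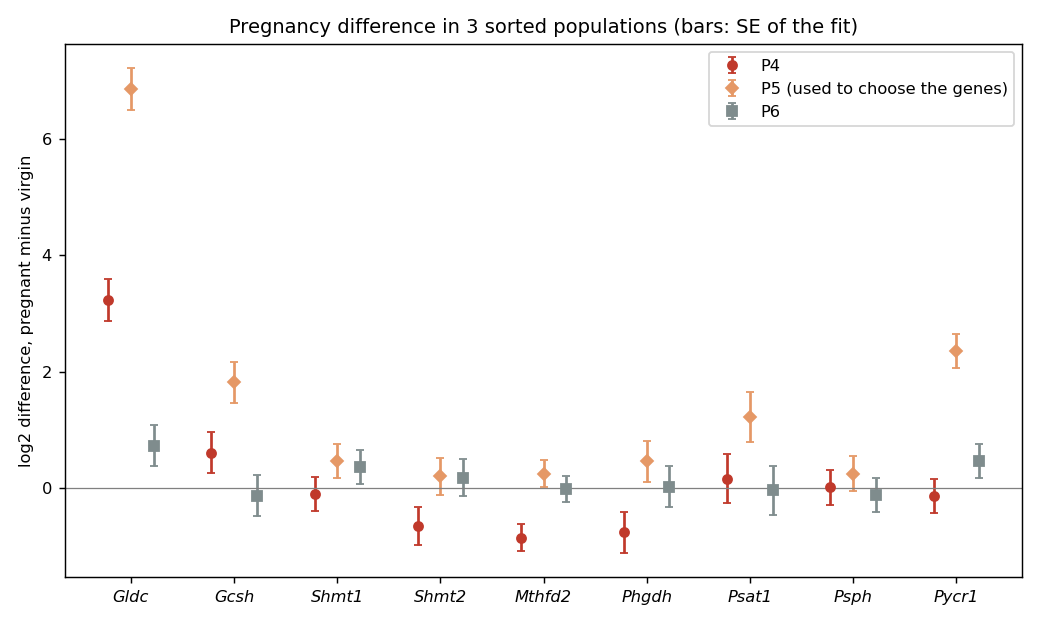
Log2 difference, pregnant minus virgin (y axis), for the 9 genes (x axis) in P4, P5 and P6; points are fitted differences from 2 arrays a group and bars their SE. Gldc differs by 3.23 in P4, 6.86 in P5 and 0.73 in P6; Pycr1 differs by 2.36 in P5 but by -0.13 in P4 and 0.47 in P6.

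Within pregnant mice the populations were then compared; these comparisons share arrays with each other and with the pregnancy comparisons. Gldc is given without a test wherever P5 enters: pregnant P4 was below pregnant P5 by a log2 difference of -3.76, and pregnant P5 was above pregnant P6 by 5.54.

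Pregnant P4 had lower Pycr1, Shmt1 and Gcsh than pregnant P5. Pycr1 was at -1.51 and -1.08 in pregnant P4, against 1.02 and 1.04 in pregnant P5, a difference of -2.33 ± 0.29 (SE; limma adjusted p = 0.000835). Shmt1 was at -0.91 and -0.88, against 0.51 and 0.73, a difference of -1.52 ± 0.29 (limma adjusted p = 0.0066). Gcsh was at -1.03 and -0.28, against 0.65 and 0.74, a difference of -1.36 ± 0.35 (limma adjusted p = 0.0259). In each the arrays did not overlap, and both scans gave the same direction (Gcsh -1.69 in scan 2 and -1.02 in scan 3). In scan 2 pregnant P4 and pregnant P5 lay on different slides, so population cannot be told apart from slide there. In scan 3 they shared a slide. With the replicate block, Phgdh (-1.12, limma adjusted p = 0.0022) and Shmt2 (-0.70, limma adjusted p = 0.0119) also passed.

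These 3 of 8 genes stand beside 22.6% of all genes called, and the 5 with the block beside 39.5%. In the same comparison, 3 of 7 basal, 2 of 5 endothelial and 2 of 4 pericyte markers were higher in pregnant P4, while 2 of 7 luminal markers and 1 of 6 cell cycle genes (Mki67, -2.50, limma adjusted p = 0.0208) were lower. The other 5 luminal markers were not called, and the median over the 7 was 0.27. Luminal markers summed to 76900 to 104000 in pregnant P4 and to 75700 to 93900 in pregnant P5. The part of all these markers was not tested. The median difference of the 8 listed genes was -0.97, against -0.05 over all genes. Under median centring in place of loess, no gene passed: Pycr1 had -1.71 (limma adjusted p = 0.0957), Shmt1 -1.07 (0.153) and Gcsh -1.09 (0.398). The Gcsh call was also lost without pregnant P4 replicate 2 (-0.98, limma adjusted p = 0.131) or either pregnant P5 array (-1.31 and -1.40, 0.0945 and 0.0977).

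Pregnant P5 in turn had higher Shmt1, Psat1 and Pycr1 than pregnant P6. Shmt1 was at 0.51 and 0.73 in pregnant P5, against -1.37 and -1.29 in pregnant P6, a difference of 1.95 ± 0.29 (SE; limma adjusted p = 0.00137). Psat1 was at -1.55 and -1.37, against -3.69 and -2.77, a difference of 1.77 ± 0.425 (limma adjusted p = 0.0151). Pycr1 was at 1.02 and 1.04, against -0.02 and 0.03, a difference of 1.03 ± 0.29 (limma adjusted p = 0.0313). None of these overlapped. With the replicate block, Gcsh (1.07, limma adjusted p = 0.00609) and Phgdh (0.94, limma adjusted p = 0.0048) passed too.

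The count of 3 of 8 stands beside 27% of all genes called, and the 5 with the block beside 42.7%. Of the markers in this comparison, 6 of 6 fibroblast and 2 of 4 pericyte genes were lower in pregnant P5, while 6 of 7 luminal, 4 of 6 cell cycle and 2 of 6 milk genes were higher. Their part was not tested. The Shmt1 call held in all 25 alternatives. Under median centring neither Psat1 (1.46, limma adjusted p = 0.114) nor Pycr1 (0.80, 0.48) passed. Without scan 3, which left 1 array in each of these groups, their calls were not kept either (1.40 and 1.06). From the scanner log ratio Pycr1 was not called (1.23, limma adjusted p = 0.0765). Psat1 was not called without either pregnant P5 array (1.86 and 1.68, limma adjusted p = 0.0503 and 0.0818) or without pregnant P6 replicate 1 (1.31, 0.094), and Pycr1 not without any of the 4 arrays (1.00 to 1.05, 0.0952 to 0.121).

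The 2 Shmt1 probes disagreed. The brighter one, at chr11:60871155-60871214 on mm7, gave the values above, and the other, at chr11:60880152-60880211, gave a difference of 0.70 between pregnant P5 and pregnant P6 and of -0.55 between pregnant P4 and pregnant P5. Between virgin P5 and virgin P6 the brighter probe gave 1.86 and the other -0.17. For the pregnancy difference in P4, the 3 probes of Phgdh gave -0.76, -0.59 and -0.37, and the 2 of Psph 0.01 and -0.06.

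Between pregnant P4 and pregnant P6, Gldc was higher and Pycr1 lower in P4. Gldc was at 2.09 and 2.55 in pregnant P4, against 0.26 and 0.81 in pregnant P6, a difference of 1.78 ± 0.36 (SE; limma adjusted p = 0.0122). Pycr1 was at -1.51 and -1.08, against -0.02 and 0.03, a difference of -1.30 ± 0.29 (limma adjusted p = 0.021). Neither gene overlapped. These 2 of 9 stand beside 12.1% of all genes called. With the replicate block, Mthfd2 passed too (-0.55, limma adjusted p = 0.0356), against 22.6% of all genes.

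Both calls depended on single arrays and on the processing. Neither was kept without scan 3 (Gldc 2.28, Pycr1 -1.06). Gldc was not called from the scanner log ratio (2.16, limma adjusted p = 0.0542), nor Pycr1 under median centring (-0.91, 0.557). Gldc was not called without pregnant P4 replicate 2 (1.55, limma adjusted p = 0.0777) or pregnant P6 replicate 2 (1.51, 0.0724), and Pycr1 not without pregnant P4 replicate 1 (-1.08, 0.128) or either pregnant P6 array (-1.28 and -1.32, 0.0893 and 0.0736). Fibroblast markers were lower in pregnant P4 in 6 of 6 cases, and 6 of 7 luminal and 4 of 7 basal markers were higher; their part was not tested.

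**Figure D3:**
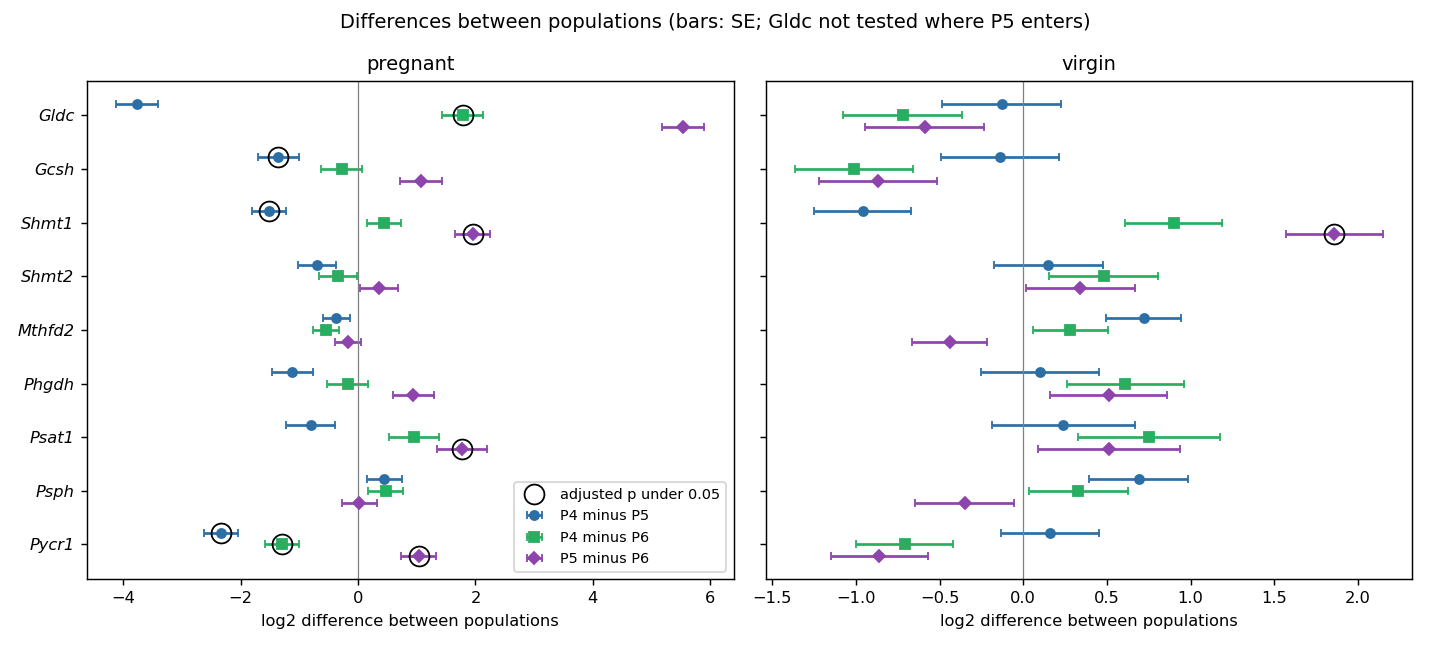
Log2 difference between populations (x axis) for the 9 genes (rows) within pregnant mice (left) and virgin mice (right, with a narrower scale); points are fitted differences, bars their SE, and black rings mark adjusted p under 0.05. Of the tested values, 8 are ringed in pregnant mice and 1, Shmt1 in P5 minus P6, in virgin mice.

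In virgin mice, 1 difference between populations passed the test. Between virgin P5 and virgin P6, Shmt1 was higher in P5, at -0.30 and 0.64 in virgin P5, against -1.79 and -1.59 in virgin P6. The difference was 1.86 ± 0.29 (SE; limma adjusted p = 0.0025), and the arrays did not overlap. It was the only call among 8 genes, where 16.1% of all genes were called. The mean of both Shmt1 probes gave 0.84 (limma adjusted p = 0.0529), and with local backgrounds as given the difference was 0.92 (0.228). With the replicate block, Gcsh (-0.87, limma adjusted p = 0.0257) and Pycr1 (-0.86, limma adjusted p = 0.00722) were lower in virgin P5, against 27.1% of all genes.

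Between virgin P4 and virgin P5, limma called 0 of 8 genes (3 at an unadjusted p under 0.05), against 11.4% of all genes. With the replicate block, Shmt1 was lower in virgin P4 (-0.96, limma adjusted p = 0.0154) and Mthfd2 higher (0.72, limma adjusted p = 0.00973), against 22.1% of all genes. Mthfd2 had -2.01 and -1.73 in virgin P4, against -2.66 and -2.53 in virgin P5, without overlap.

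Between virgin P4 and virgin P6, limma called 0 of 9 genes (3 at an unadjusted p under 0.05), against 10.4% of all genes. Gldc differed by -0.72 (interval -1.59 to 0.15; limma adjusted p = 0.33). With the replicate block, Gcsh (-1.01, limma adjusted p = 0.0165) and Pycr1 (-0.71, limma adjusted p = 0.0264) were lower and Shmt1 higher (0.90, limma adjusted p = 0.0225) in virgin P4, against 20.1% of all genes. Fibroblast markers were lower in virgin P4 and in virgin P5 than in virgin P6, 6 of 6 in each. Basal markers were higher in virgin P4 than in virgin P5 (7 of 7) and virgin P6 (6 of 7), and luminal markers were higher in virgin P5 than in virgin P6 (7 of 7). The part of these markers was not tested.

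GFPhi and GFPlo cells had 1 array each, so their difference has no test. No listed gene differed by 2-fold, where 6.34% of all genes did. The largest differences, GFPhi minus GFPlo, were 0.59 for Psat1 (-2.26 and -2.85) and 0.40 for Psph (-0.62 and -1.02). The other 7 lay between -0.18 and 0.12.

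Across the 8 group means, the genes with the pattern most like that of Gldc were Acss2 (r = 0.996), Glrx (0.994), Lcn10 (0.992), Saa3 (0.991) and Orm1 (0.991). Acss2 makes acetyl-CoA from acetate, Glrx is a glutaredoxin, Lcn10 a lipocalin, and Saa3 and Orm1 are acute-phase proteins. These correlations are a description over 8 groups that share the reference RNA and in which pregnant P5 is the highest point of all 6 genes. In pregnant P5 the mean log2 ratio was 2.63 for Acss2, 2.13 for Glrx, 4.01 for Lcn10, 2.12 for Saa3 and 3.74 for Orm1. Since these genes were picked for their likeness over the same groups, their pregnancy differences are given without a test. In P4 they were 1.49 for Acss2, 1.49 for Glrx, 1.39 for Lcn10, 2.04 for Saa3 and 1.52 for Orm1, and in P6 they ran from 0.07 to 0.99.

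**Figure D4:**
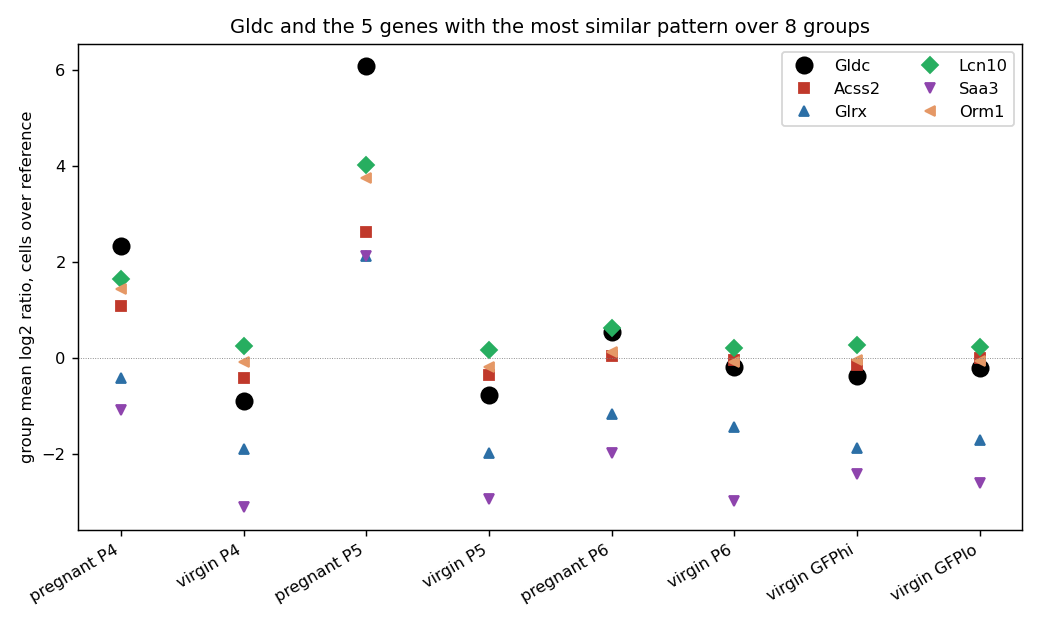
Group mean log2 ratio over reference (y axis) of Gldc and the 5 genes most correlated with it, in each of the 8 groups (x axis); black circles are Gldc. All 6 genes have their highest mean in pregnant P5 and the next in pregnant P4.

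Among the listed genes themselves, the highest correlations with Gldc over the 8 groups were those of Gcsh (r = 0.801), Pycr1 (0.762) and Psat1 (0.729). They ranked 2035, 2569 and 3013 among 23504 genes, so many other genes were closer to Gldc. Shmt1 was at 0.579, Shmt2 at 0.327, Phgdh at 0.290, Psph at -0.209 and Mthfd2 at -0.356. In its order over groups Pycr1 departed from Gldc in P4, where its pregnant mean (-1.30) was among the lowest. Mthfd2 and Psph had their highest means in virgin P4 (-1.87) and GFPhi (-0.62).

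Other enzymes of these pathways were described through 4 lists. In P4, Gnmt, the glycine N-methyltransferase, was at 1.53 in pregnant cells, against 0.52 in virgin cells (difference 1.01, limma adjusted p = 0.0129). It was the only call among 20 genes of glycine and serine use. Aldh4a1, which oxidises the intermediate of proline breakdown, was at 2.22 in pregnant cells, against 1.07 in virgin cells (difference 1.15, limma adjusted p = 0.00805). It was the only call among 16 genes of proline, glutamate and arginine metabolism. Both calls were lost when only the P4 arrays were fitted, where 0 of all genes were called. No gene passed among 17 folate and one-carbon genes or among 18 genes of the ATF4 and amino acid response. These counts of 1 of 20, 1 of 16, 0 of 17 and 0 of 18 stand beside 3.73% of all genes called, and none is read as a result about its list. The list medians were -0.24 (folate), 0.01 (glycine and serine), 0.16 (proline) and 0.40 (ATF4), against -0.03 over all genes. In P6 no gene of the 4 lists passed, and the medians lay between -0.08 and 0.12.

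In P5, again without a test, the differences of related genes were of both signs. Gnmt differed by 3.44, with 3.51 in pregnant P5, against 0.07 in virgin P5. Aldh1l1, the cytosolic formyltetrahydrofolate dehydrogenase, differed by 3.07. The proline synthesis enzyme Aldh18a1 differed by 2.97. On the other side, Arg1, the arginase of the urea cycle, differed by -3.83, the glutamine synthetase Glul by -2.99, the glutaminase Gls2 by -2.46 and the folate hydrolase Ggh by -2.48. In the ATF4 list the differences ran from -1.19 to 2.66, with Trib3 at 2.66, the asparagine synthetase Asns at 2.56 and Atf4 itself at 1.53. The list medians were -0.23 (folate), 0.17 (glycine and serine), -0.26 (proline) and 0.88 (ATF4), against 0.04 over all genes.

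**Figure D5:**
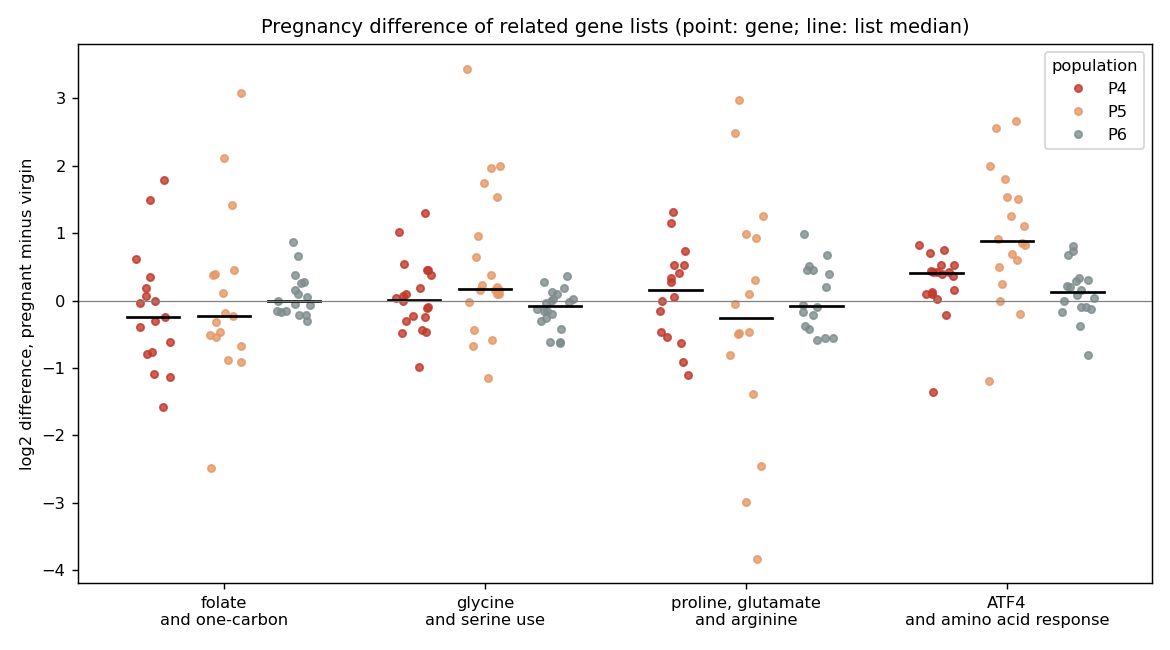
Log2 difference, pregnant minus virgin (y axis), of each tested gene in 4 related lists (x axis) in P4 (red), P5 (orange) and P6 (grey); black lines are list medians. The P5 points spread from -3.83 (Arg1) to 3.44 (Gnmt); the median of the ATF4 list is 0.40 in P4, 0.88 in P5 and 0.12 in P6.

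Pregnant P4 and pregnant P5 were also compared in these lists. Of 17 folate genes, 5 were lower and 2 higher in pregnant P4, among them the folate receptor Folr1 (-2.38, limma adjusted p = 0.0267) and Aldh1l1 (-2.29, limma adjusted p = 0.00198). Of 20 glycine and serine genes, 4 were lower and 1 higher, led by Gnmt (-1.98, limma adjusted p = 0.000102) and the neutral amino acid transporter Slc1a4 (-1.50, limma adjusted p = 0.01). Of 16 proline genes, 4 were lower and 2 higher, with the arginase Arg2 at -3.05 (limma adjusted p = 0.000166) and the glutamate dehydrogenase Glud1 at 2.26 (limma adjusted p = 7.16e-05). Of the 18 ATF4 genes, 5 were lower and 1 higher, with Nupr1 at -3.61, Trib3 at -2.50, Asns at -1.80 and Vldlr at 1.54. These counts stand beside 22.6% of all genes called, and none is read as a result about its list.

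Pregnant P5 and pregnant P6 were compared in the same 4 lists. Folate genes were higher in pregnant P5 in 4 cases and lower in 3 of 17, with Folr1 at 4.29 (limma adjusted p = 0.00122) and Ggh at -2.44 (limma adjusted p = 0.00028). Glycine and serine genes were higher in 7 and lower in 1 of 20: Gnmt differed by 3.28 (limma adjusted p = 3.99e-06), Gcat, which makes glycine from a threonine product, by 2.31, and the glutamine transporter Slc1a5 by -2.57. Proline genes were higher in 5 and lower in 4 of 16, with Arg2 at 4.41 and the prolyl hydroxylase subunit P4ha2 at -2.43. ATF4 genes were higher in 5 and lower in 2 of 18, with Asns at 3.34, Trib3 at 3.33 and Vldlr at -3.13. Of all genes, 27% were called here, and no count is read as a result about its list.

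Between pregnant P4 and pregnant P6, Aldh4a1 was higher by 2.67 (limma adjusted p = 2.33e-05) and Gnmt by 1.30 (limma adjusted p = 0.000755) in P4, while P4ha2 differed by -3.81 and Atf5 by -3.03. The counts were 1 higher and 2 lower of 17 folate genes, 3 and 2 of 20 glycine and serine genes, 2 and 2 of 16 proline genes, and 2 and 3 of 18 ATF4 genes, against 12.1% of all genes called. In virgin mice, 2 to 8 genes of each list were called in each pair of populations, against 11.4% (P4 minus P5), 10.4% (P4 minus P6) and 16.1% (P5 minus P6) of all genes. Virgin P5 had higher Arg1 (3.59 above virgin P6, limma adjusted p = 0.000602) and Arg2 (3.89, limma adjusted p = 2.59e-05), and virgin P4 differed from virgin P5 in the same genes by -3.25 and -3.27.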

How the data were processed

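The 14 two-colour arrays hold Cy5-labelled RNA of sorted cells and Cy3-labelled reference RNA, per the labels' protocols. Agilent Feature Extraction 9.5.3.1 turned the scans into spot values, per the file headers, and the submitters' processing notes name it too. The scanner files, as deposited, give mean and local background intensities per spot and channel on a linear scale, flags without a unit, and a log10 ratio of Cy5 over Cy3 made by the scanner software. The authors also deposited a table of log2 ratios for the whole series, which matched the scanner software's log10 ratio once that was put on a log2 scale (correlations 0.99 to 1 over probes, column medians -0.0182 to 0.102, so not centred). Both ratios served as alternatives only.

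From the intensities, log2 ratios were computed in R 4.3.3 with limma 3.58.1. Background was corrected with normexp (offset 50), and loess was run within each array with control spots at weight 0. For marker sums and the Gldc bound, Cy5 intensities were rebuilt from these ratios and from mean log intensities. The latter were quantile-normalised between arrays. Spots with an outlier flag were dropped, which took 77 to 193 of them from an array, and duplicate spots were averaged. Where the scanner software had put an outlier flag on a local background (412 to 1659 times in a channel of an array), the median background of that channel stood in for it, a step chosen after earlier results were seen. A probe was kept if both arrays of any of the 6 replicated groups had it well above background in Cy5, as 34805 of 41174 did, and the brightest probe of a gene was kept. A RefSeq table gave names to 22951 probes by their accession, to 6659 by their symbol and to 3109 by an older synonym, while 8455 are called as the scanner files call them. A model with 6 group means was fitted to 12 arrays (6 residual degrees of freedom) for 23647 genes, with Benjamini-Hochberg adjustment over all genes, and "rose", "fell" or "called" means an adjusted p under 0.05. The fit was tested on simulated data.

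Per array, Cy5 intensity had a median of 70.9 to 196 over spots, local background one of 32 to 34.5, and the share of probes well above background was 66.4% to 86.7%. The number of arrays limits the precision. The arrays lay on 5 slides scanned in 3 batches, of which scan 1 held virgin replicate 1 and both GFP arrays, scan 2 all replicates 2, and scan 3 pregnant replicate 1. Only the scan 3 arrays were extracted without extended dynamic range, per the file headers. They had 111 to 236 saturated Cy5 spots each, against 0 to 15 on the other arrays. Deviations from the group means correlated at 0.311 to 0.688 over the 6 pairs of same-numbered arrays of a condition, and at -0.204 to 0.139 over 9 pairs across conditions. Replicate numbers therefore pair arrays within a condition, which shared a scan, and the fit with the number within condition as a random block is given where it changed a call.

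Gldc was not tested in comparisons with P5, nor was any gene in the pregnancy comparison of P5, because that comparison chose the genes. The listed genes, the 4 related lists and the marker lists were chosen with earlier results of these data known. In each list, up to 4 called genes with the largest difference could be named in a comparison, and the 5 genes most correlated with Gldc over 8 group means. The direct comparison of P4 and P6 and the crossed pairing in P6 were added after seeing the data. Alternatives covered the normalization, the starting values, outlier backgrounds, the dim probe filters, the probe of a gene, slide, scan, pairing, the arrays fitted and each array left out.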

Additional observations from a re-analysis of the deposited data

Results flagged for a closer look

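For Phgdh and Mthfd2, every pregnant P4 array lay below every virgin P4 array, while every pregnant P5 array lay above every virgin P5 array. Phgdh differed by -0.76 in P4 and 0.46 in P5 (SE 0.351 each), and Mthfd2 by -0.85 in P4 and 0.25 in P5 (SE 0.224 each). With 2 arrays a group such a pattern can arise by chance, and its share over all genes was not counted. The difference between populations was not tested, since the P5 comparison was the one used to choose the genes, and neither gene passed the test in P4 (Mthfd2 did with the fixed replicate block, adjusted p = 0.0437 by limma). Within scan 2 the values had the same signs, -0.75 in P4 and 0.60 in P5 for Phgdh, and -0.69 in P4 and 0.29 in P5 for Mthfd2.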

How the results depend on the processing

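The pregnancy call of Gldc in P4 was kept in 24 of 25 alternatives and that of Shmt1 between pregnant P5 and pregnant P6 in 25 of 25. Counts of called genes moved elsewhere. For pregnancy in P4 (1 gene), 2 passed with scan as a block, 3 with the fixed replicate block over all arrays and 0 with only the arrays compared. For virgin P4 minus P5 (0), there were 2 with slide or scan as a block and with the random or the fixed replicate block, and 1 without scan 3 or with only the arrays compared. For virgin P4 minus P6 (0), there were 2 from the scanner log ratio or the series table, 4 with slide, 5 with scan, 3 with the random and 1 with the fixed replicate block, and 1 with backgrounds as given, without scan 3 or with only the arrays compared. For virgin P5 minus P6 (1), there were 0 with the mean of probes, 3 with slide, 4 with scan, 3 with the random and 2 with the fixed replicate block, and 2 without scan 3 or with only the arrays compared. For pregnant P4 minus P5 (3), there were 0 under median centring, 1 with backgrounds as given and 5 with slide, scan or either replicate block. For pregnant P4 minus P6 (2), there was 1 under median centring, the scanner log ratio or the series table, and 0 without scan 3 or with only the arrays compared. For pregnant P5 minus P6 (3), there was 1 under median centring, 6 with slide or scan, and 5 with either replicate block. The difference of Gldc in P5 (6.86) was 6.27 under median centring, 8.99 from the scanner log ratio or the series table, 6.07 with backgrounds as given and 7.68 with slide as a block. No listed gene passed 2-fold between GFPhi and GFPlo, but 1 did from the scanner log ratio or the series table. For the pregnancy effect of P4 against P6 (0), there were 2 with scan as a block and 1 with the random replicate block. The causes were not tested.

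Leaving out 1 array at a time gave 1 to 1 genes for pregnancy in P4, 0 to 0 in P6, 0 to 1 for virgin P4 minus P5 and for virgin P4 minus P6, 1 to 2 for virgin P5 minus P6, 2 to 4 for pregnant P4 minus P5, 0 to 2 for pregnant P4 minus P6, 1 to 4 for pregnant P5 minus P6, 6.70 to 7.01 for Gldc in P5, and 0 to 0 for P4 against P6. Crossing the replicate numbers in P6 left 0 genes called. Signs turned for Cth in virgin P4 minus P6 (-0.06 with backgrounds as given) and for Slc19a1 with the mean of probes (-0.24 in pregnant P4 minus P5 and 0.22 in pregnant P5 minus P6).

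Over all genes, the fewest and most calls were 0 and 1762 for pregnancy in P4 (881 as reported), 0 and 144 in P6 (49), 1304 and 5761 for virgin P4 minus P5 (2691), 1029 and 5190 for virgin P4 minus P6 (2451), 2169 and 6862 for virgin P5 minus P6 (3811), 2422 and 9779 for pregnant P4 minus P5 (5355), 893 and 5775 for pregnant P4 minus P6 (2857), 2797 and 10486 for pregnant P5 minus P6 (6387), and 1 and 671 for P4 against P6 (71). The median of all genes moved by over 0.1 under median centring (to 0.14 against -0.03 for pregnancy in P4, 0.08 against -0.05 for pregnant P4 minus P5 and 0.16 against 0 for pregnant P4 minus P6). It also did from the scanner log ratio or the series table (to -0.17 against -0.05 for pregnant P4 minus P5, and to 0.16 or 0.17 against 0.05 for pregnant P5 minus P6). Gldc near background in virgin cells, a dim Gcsh reference on scan 3 and 2 arrays a group limit these values.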
